A study of Mus musculus with 11 samples.

Results

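Bile duct and portal tract spots were studied in 3 sections of uninjured mouse liver profiled with Visium, an assay that captures polyadenylated RNA from tissue on a grid of barcoded spots. In each section the members were the top 3% of spots ranked by the summed UMIs (unique molecular identifiers, each standing for a captured transcript) per 10000 of 5 genes, namely Krt7, Krt19, Epcam, Sox9 and Spp1. This gave 58 of 1937 spots in section 2, 81 of 2690 in section 3 and 70 of 2329 in section 4, or 209 of the 6956 uninjured spots and of the 25136 spots that passed the filters in the whole series. The spots with no UMI of the 5 genes, 1204, 1520 and 1452 of them in the same order, formed the marker-free class they were compared with. The series holds 11 snap-frozen liver sections along a time course after acetaminophen (APAP), with 3 uninjured sections at 0 h and 8 sections at 24, 36 or 48 h. The study's methods give C57BL/6JCrl mice, male unless stated otherwise, with an age of 8 to 12 weeks for all experiments, and a fast before APAP. Whether the 0 h liver came from a fasted mouse is not given in the sources used here. Sections were 10 µm thick, and a Visium spot is larger than a cell, so that its RNA mixes several cells. The methods state 1 mouse per time point for this assay. The number of replicates is therefore the number of sections, and no p below covers the spread between mice. Every p rests on the spread between sections, which may be technical and which the fit pools over genes.

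Portal tracts hold a branch of the portal vein, a hepatic artery and a bile duct within a sleeve of collagen-rich connective tissue. The ducts are lined by cholangiocytes, epithelial cells that modify bile by moving water, bicarbonate and sugars and that rest on keratin filaments and tight junctions. Cholangiocytes arise in development next to the portal mesenchyme, where the ligand Jag1 signals through Notch receptors, and YAP with its TEAD partners is active in duct cells. Hepatocytes around the tract make urea and glucose, whereas those around the central vein make glutamine and metabolise drugs.

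The passing spots of sections 2, 3 and 4 held 57398798, 67045372 and 45196102 UMIs, and values given in threes below follow that order. Levels are in CPM, the UMIs of a gene per 1000000 UMIs of a spot class summed within a section. Bile duct spots were about as deep as marker-free spots, with medians of 27441, 19909 and 19807.5 UMIs against 27782, 19052.5 and 18229.5. Their mitochondrial share was 6.07%, 7.79% and 2.85% against 6.82%, 7.57% and 5.15%, so it was lower in sections 2 and 4 and higher in section 3. Section 3 stood apart in red cell transcripts, whose 5-gene sum reached 1006 CPM in its bile duct spots and 1523 CPM in its marker-free spots, while the other sections lay between 109 and 308 CPM in these classes.

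The choice of spots rested mainly on Spp1, the secreted glycoprotein osteopontin, which supplied 94.2%, 92.6% and 93.2% of the UMIs of the 5 genes in the chosen spots. These values chose the spots and are given as a description only. Spp1 reached 615, 866 and 816 CPM in bile duct spots, 53.2, 74.8 and 63.6 CPM in the spots touching them and 11.3, 16.9 and 21.2 CPM in spots at least 3 steps away. Epcam, an epithelial adhesion protein, reached 18.5, 27.8 and 21.1 CPM in the chosen spots, and the duct keratin gene Krt19 reached 6.95, 21.6 and 20.4 CPM. Krt7, another duct keratin gene, reached 4.64, 6.25 and 8.75 CPM, and Sox9, a transcription factor of duct cells, reached 7.53, 13.1 and 9.48 CPM. UMIs of at least 2 of the 5 genes were present in 35 of 58, 53 of 81 and 45 of 70 spots, whereas 23, 28 and 25 spots had been chosen on Spp1 alone. The last spots inside the threshold scored 3.36, 3.75 and 4.57 UMIs per 10000 and the first spots outside scored 3.35, 3.71 and 4.42, so the boundary cuts a continuous range.

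**Figure D1:**
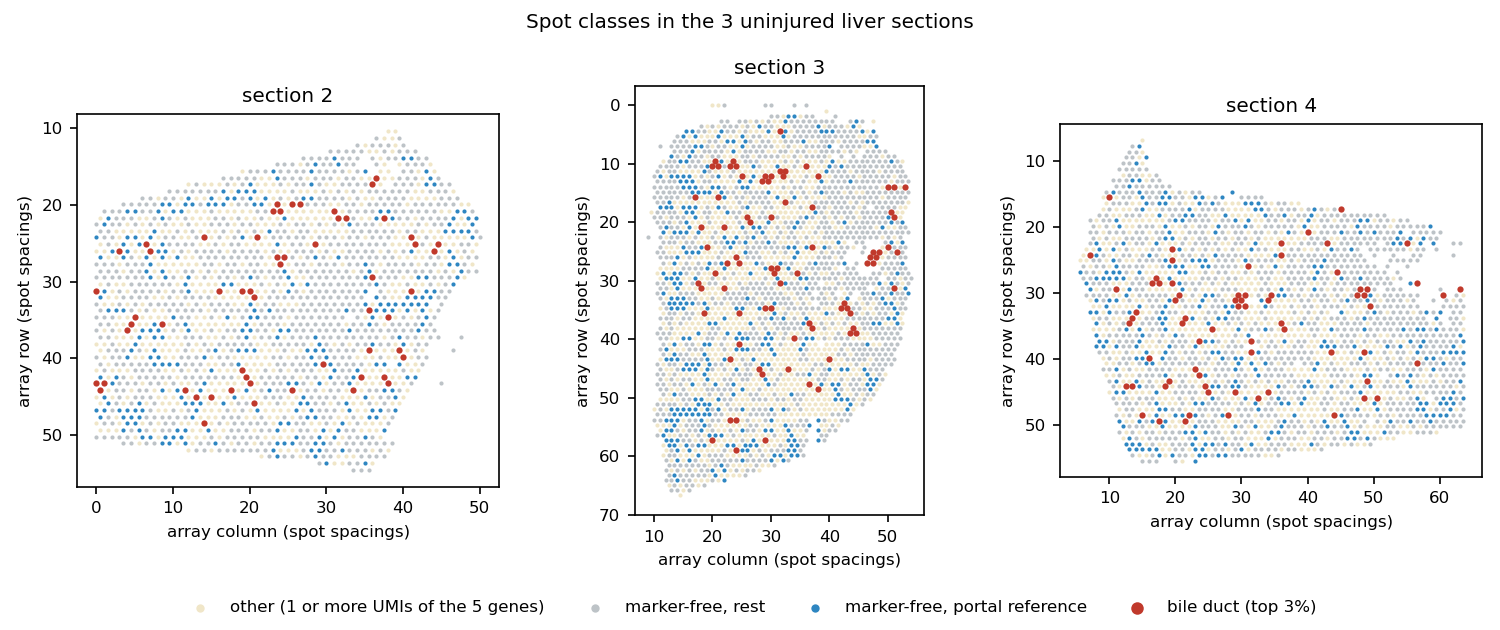
Array positions of all passing spots in the 3 uninjured sections, with both axes in units of the distance between neighbouring spots. Red, the 58, 81 and 70 bile duct spots. Blue, marker-free spots of the portal reference. Grey, the other marker-free spots. Pale, spots with 1 or more UMIs of the 5 genes below the top 3%. The red spots form small scattered groups of at most 3, 6 and 6 touching spots.

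Position on the array had no part in the choice. Of the bile duct spots, 35 of 58, 47 of 81 and 34 of 70 touched another bile duct spot, and they fell into 37, 51 and 49 groups with 23, 34 and 36 standing alone. Among the neighbours of bile duct spots, 14.1%, 17.8% and 14.2% were bile duct spots themselves, against 2.69%, 2.60% and 2.62% among the neighbours of other spots. All 3 sections showed this clustering, as the map of spot classes shows. Spots at the edge of the tissue, where the capsule and its mesothelium lie, numbered 3, 1 and 8 of the bile duct spots.

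The label was checked against 25 further genes of bile duct epithelium that had no part in the choice. In edgeR's quasi-likelihood test with the section as block, 954 of 12031 genes tested (7.93%) were higher in bile duct spots than in marker-free spots at an adjusted p under 0.05 and 668 (5.55%) were lower. Of the 25 duct genes, 23 passed the filter on low counts, a filter that a gene can pass through its level in a single class, and 21 of them were higher and none lower, with a median log2 fold change of 1.49 against -0.01 over all genes tested. These genes were measured in the same spots that the 5 genes chose. Hepatocyte RNA was abundant in these spots too, with Alb, the serum albumin gene, at 60175, 58114 and 56189 CPM. Without the section as block the test called 625 genes higher and 178 lower. Scaling by total counts in place of TMM gave 1131 higher and 431 lower.

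Genes of the duct lining were among the sharpest differences. Cldn7, a tight junction claudin (chromosome 11, 69964779 to 69967885, mm10), reached 5.21, 16.5 and 21.1 CPM in bile duct spots against 0.119, 0.400 and 0.347 CPM in marker-free spots, a log2 fold change of 5.49 ± 0.34 (SE, n = 3 sections, edgeR adjusted p = 5.04e-14). Tspan8, a tetraspanin of epithelial surfaces, reached 4.64, 17.6 and 17.5 CPM against 0.0892, 0.428 and 0.270 CPM (5.52 ± 0.35). Prom1, which marks the apical protrusions of epithelial cells, reached 7.53, 14.2 and 12.4 CPM against 0.208, 0.200 and 0.347 CPM (5.43 ± 0.37). These 3 genes were named after their values were seen, so the lack of overlap between their classes is a description only. Section 2 had the lowest level of each in bile duct spots. Cd24a, a surface glycoprotein of duct and progenitor cells, reached 12.7, 30.7 and 24.8 CPM against 0.595, 1.17 and 0.809 CPM, a log2 fold change of 4.63 ± 0.26. Krt23, a keratin gene of duct cells, reached 9.27, 9.09 and 7.29 CPM against 0.506, 0.885 and 0.308 CPM (3.82 ± 0.37). The mucin gene Muc1, which coats duct surfaces, reached 4.64, 6.25 and 5.10 CPM against at most 0.286 CPM.

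The most abundant members of the duct list, which hepatocytes also express, differed less. Clu, an extracellular chaperone, reached 1885, 2259 and 2298 CPM against 1109, 1170.4 and 1270.0 CPM, a log2 fold change of 0.79 ± 0.04 (edgeR adjusted p = 1.89e-15). The keratin genes Krt18 and Krt8, expressed in both cell types, differed by 0.39 ± 0.06 and 0.34 ± 0.06. Tm4sf4, a membrane protein of the tetraspanin-like family, reached 155, 156 and 136 CPM against 55.9, 55.2 and 44.6 CPM, a log2 fold change of 1.46 ± 0.07. Cldn3, a claudin shared with hepatocytes, did not pass the test, with 112, 128 and 101 CPM against 113, 114 and 100 CPM. The cilium and cyst genes Pkhd1 and Bicc1, whose products keep duct tubules in shape, were higher by 2.10 ± 0.30 and 3.38 ± 0.38 on the log2 scale.

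Transport genes were less clear. Of 14 genes of duct transport and secretion, 11 passed the filter and 3 were higher, with none lower and a median log2 fold change of 0.41. Slc5a1, the sodium-coupled glucose carrier SGLT1, reached 8.69, 10.2 and 2.92 CPM in bile duct spots against 0.119, 0.200 and 0.308 CPM, a log2 fold change of 5.12 ± 0.47 (edgeR adjusted p = 4.2e-10). Pigr, which carries IgA into bile, reached 810.0, 805 and 910.5 CPM against 577, 583 and 666 CPM (0.41 ± 0.04), and Atp1b1, a sodium pump subunit, reached 92.1, 89.8 and 83.8 CPM against 51.1, 48.2 and 43.9 CPM (0.83 ± 0.08). The water channel gene Aqp1 did not pass the test at 103, 145 and 127 CPM against 97.0, 108 and 108 CPM, and neither did the bicarbonate exchanger gene Slc4a2. The chloride channel gene Cftr and the secretin receptor gene Sctr, both defining genes of bile secretion, were at most 2.92 CPM in any class and did not pass the filter on low counts.

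Genes of the Notch and YAP pathways and other regulators of duct identity were mostly on the higher side. Of 19 genes, 17 passed the filter, 10 were higher and none lower, with a median log2 fold change of 1.19. Jag1, the ligand, reached 11, 5.11 and 8.02 CPM against 1.40, 1.94 and 1.54 CPM (2.23 ± 0.35, edgeR adjusted p = 1.13e-05). Notch3, the receptor of vascular smooth muscle, reached 12.7, 10.8 and 7.29 CPM against 1.1, 0.743 and 1.27 CPM (3.29 ± 0.33). The receptor genes Notch1 and Notch2 did not pass the test, at 0.45 ± 0.21 and 0.49 ± 0.23. Among Notch targets Hes1 was higher by 1.19 ± 0.27 and Heyl by 1.63 ± 0.40, and the transcription factor gene Sox4 by 2.44 ± 0.41. Yap1 itself reached 16.2, 26.7 and 13.1 CPM against 18.8, 19.8 and 17.8 CPM and did not pass the test.

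Of the target genes of YAP and TEAD, 3 of 4 were higher. Ctgf, a matricellular protein gene, reached 23.8, 61.9 and 33.5 CPM in bile duct spots against 5.26, 8.17 and 8.44 CPM in marker-free spots, a log2 fold change of 2.39 ± 0.17 (edgeR adjusted p = 1.06e-12). Cyr61, its relative, now named Ccn1, reached 11.6, 17.0 and 9.48 CPM against 4.97, 4.60 and 2.62 CPM (1.58 ± 0.24). Ankrd1, a muscle ankyrin repeat gene, reached 3.48, 3.41 and 2.19 CPM against 0.0595, 0.0857 and 0.0385 CPM (5.40 ± 0.63), and Amotl2, an inhibitor of YAP, did not pass the test at 0.14 ± 0.17. In the RefSeq promoter table (GRCm38.p6, the same build as mm10), promoters of 3 of these 4 genes were present, Ctgf having no entry, and all 3 held the letters GGAATG, the core that TEAD factors bind, on either strand. Over all 32851 promoters in the table, 4817 or 14.7% held them. The 250 bases before the start sites of Ankrd1 and Ccn1, and of the contractile gene Myl9 described next, are shown 5′ to 3′ because these are the called genes with a match, with the match in capitals (the TEAD core, or for Myl9 the CArG box bound by serum response factor, which 535 of the 32851 promoters or 1.63% held on either strand). On Ccn1 the core lies on the reverse strand. The windows are chr19:36119845-36120094 on the minus strand for Ankrd1, chr3:145649986-145650235 on the minus strand for Ccn1 and chr2:156775214-156775463 on the plus strand for Myl9. Of the 12 smooth muscle genes, 9 had an entry and 1, Myl9, held the CArG box, and Tagln, Myh11 and Actg2 had no entry. A match describes the letters and says nothing of binding.
Ankrd1: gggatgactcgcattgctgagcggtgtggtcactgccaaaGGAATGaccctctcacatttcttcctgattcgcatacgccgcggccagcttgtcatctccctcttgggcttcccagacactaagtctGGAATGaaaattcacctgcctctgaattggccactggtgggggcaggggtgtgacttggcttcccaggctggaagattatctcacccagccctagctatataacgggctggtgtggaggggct
Ccn1: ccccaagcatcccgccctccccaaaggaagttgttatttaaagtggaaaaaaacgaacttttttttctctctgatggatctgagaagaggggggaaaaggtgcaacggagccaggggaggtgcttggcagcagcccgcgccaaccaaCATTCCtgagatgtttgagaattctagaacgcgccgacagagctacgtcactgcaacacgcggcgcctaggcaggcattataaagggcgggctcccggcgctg
Myl9: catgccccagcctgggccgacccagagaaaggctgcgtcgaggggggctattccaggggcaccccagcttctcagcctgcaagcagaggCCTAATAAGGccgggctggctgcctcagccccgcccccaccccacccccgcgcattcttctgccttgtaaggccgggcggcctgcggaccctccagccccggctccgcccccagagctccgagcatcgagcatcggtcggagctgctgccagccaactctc

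Connective tissue genes of the portal tract were higher as a group. Of 31 genes of portal fibroblasts and matrix, 27 passed the filter, 23 were higher and 1 was lower, with a median log2 fold change of 1.75. Mgp, matrix Gla protein, an inhibitor of calcification (chromosome 6, 136872435 to 136875823), reached 37.1, 71.0 and 47.4 CPM against 1.55, 1.60 and 1.62 CPM, a log2 fold change of 4.95 ± 0.19 (edgeR adjusted p = 7.28e-19). Gsn, the actin-severing protein gelsolin (chromosome 2, 35256380 to 35307892), reached 167, 341 and 206 CPM against 10.5, 14.5 and 12.8 CPM (4.17 ± 0.09, adjusted p = 1.89e-25 in edgeR). Its lowest section in bile duct spots lay more than 10 times above its highest in marker-free spots. The elastic fibre genes Fbln2 and Fbln5 were higher by 4.28 ± 0.25 and 2.94 ± 0.21, and the collagen-binding gene Dpt by 4.05 ± 0.28. Among the fibrillar collagens, Col3a1 reached 45.8, 97.7 and 63.4 CPM against 16.4, 17.2 and 19.8 CPM (1.89 ± 0.15) and Col1a1 reached 9.85, 11.4 and 14.6 CPM against 2.32, 1.63 and 1.58 CPM (2.61 ± 0.29). Dcn, a small proteoglycan also made by stellate cells, was the gene called lower, at 152, 185 and 139 CPM against 182, 169 and 185 CPM (-0.22 ± 0.07, edgeR adjusted p = 0.0441). Section 3 went the other way for Dcn, and under total-count scaling no gene of the list was called lower.

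Smooth muscle genes were higher as well, with 9 of the 10 tested members of a 12-gene list called and a median log2 fold change of 2.45. Acta2, smooth muscle actin, reached 15.6, 26.7 and 27.7 CPM against 0.833, 1.43 and 1.19 CPM (4.25 ± 0.24, edgeR adjusted p = 6.1e-15). Tagln, an actin-binding protein of contractile cells, reached 37.1, 47.2 and 43.7 CPM against 4.10, 5.71 and 7.63 CPM (2.85 ± 0.16). Myl9, a regulatory myosin light chain gene, reached 24.9, 35.8 and 27.0 CPM against 4.19, 7.11 and 9.75 CPM (2.06 ± 0.19), and the smooth muscle myosin gene Myh11 was higher by 3.29 ± 0.45. Mylk, the myosin kinase gene, did not pass the test at 30.1, 32.4 and 31.3 CPM against 24.1, 30.8 and 29.6 CPM. Hepatic stellate cells, the pericytes of the sinusoid, gave no common direction, with 5 of 14 genes higher, 2 lower and a median log2 fold change of 0.11. The chemokine gene Cxcl12 reached 253, 255 and 175 CPM against 166, 147 and 136 CPM, while the guidance protein gene Reln reached 22, 24.4 and 28.4 CPM against 38.8, 44.9 and 47.9 CPM.

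**Figure D2:**
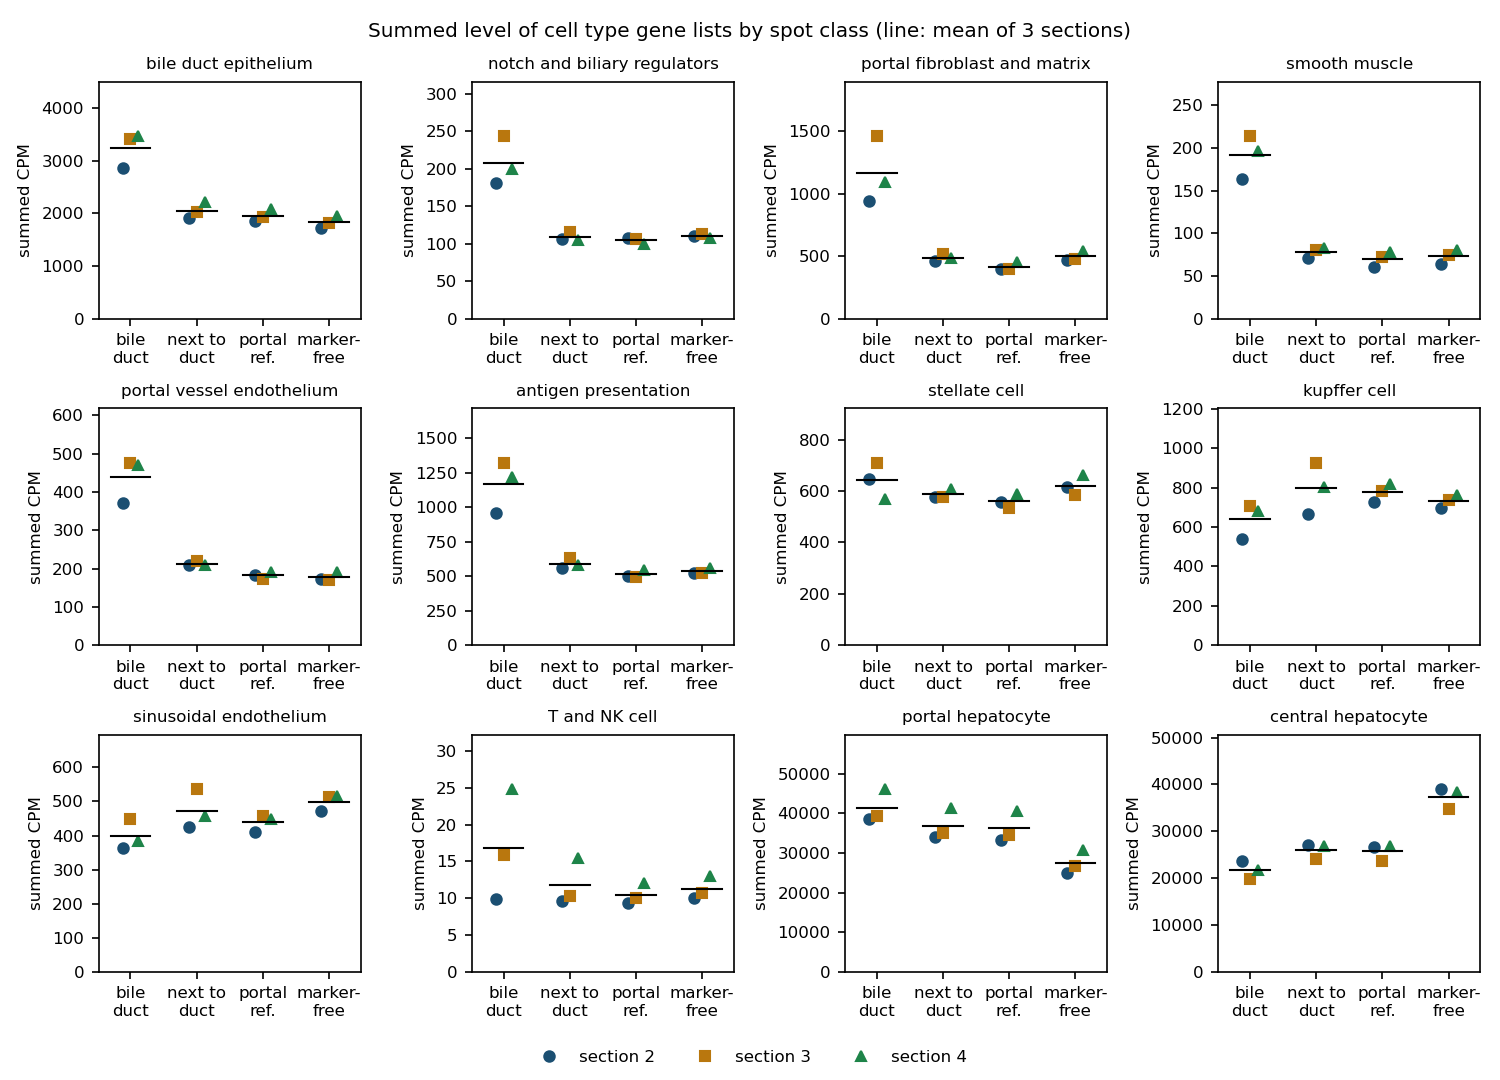
Summed level in CPM (linear axis from 0) of 12 cell type gene lists in bile duct spots, the spots touching them, portal reference spots and marker-free spots. Each symbol is 1 of the 3 uninjured sections and each line their mean. Portal fibroblast and matrix genes reached 943, 1460 and 1094 CPM in bile duct spots and between 393 and 545 CPM in the other 3 classes.

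The vessels of the tract were also represented. Of 18 genes of portal vein and artery endothelium, 16 passed the filter, 10 were higher and none lower, with a median log2 fold change of 1.24. Ly6a, a surface protein of portal endothelium, reached 152, 173 and 204 CPM against 37.9, 36.2 and 46.7 CPM (2.07 ± 0.07, edgeR adjusted p = 2.69e-20). Adgrg6, an adhesion receptor of portal vein endothelium, was higher by 4.01 ± 0.34, and the arterial connexin gene Gja5 by 4.71 ± 0.53. Vwf, the clotting factor carrier of large vessels, reached 13.3, 21.6 and 32.1 CPM against 4.16, 4.74 and 3.89 CPM (2.27 ± 0.23). The sinusoidal list went the other way, with 8 of 12 genes lower, none higher and a median of -0.49. The scavenger receptor gene Stab2 reached 25.5, 31.3 and 32.1 CPM against 42.8, 47.8 and 48.2 CPM (-0.71 ± 0.11), and Stab1 did not pass the test. With Spp1 left out of the score, 1 of the 12 sinusoidal genes was lower. The central vein endothelium list gave no common direction, with 3 of 5 tested genes lower and 2 higher. The Wnt ligand gene Wnt2, the Wnt enhancer gene Rspo3 and the receptor gene Kit were lower, and Thbd and Cdh13 were higher. Against the portal reference described below, 2 genes of this list were tested and 2 were higher, with a median log2 fold change of 1.90. Wnt2 reached 1.74, 2.84 and 0.729 CPM against 7.26, 5.34 and 6.05 CPM, and its levels in bile duct spots rest on few UMIs. In such spot sums, fewer cells of a type and less RNA per cell cannot be told apart.

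Among immune cells, antigen-presenting cells were on the higher side. Of 14 genes of MHC class II presentation and dendritic cells, 11 passed the filter, 10 were higher and none lower, with a median log2 fold change of 1.19. Cd74, the invariant chain, reached 202, 328 and 356 CPM against 105, 116 and 146 CPM (1.19 ± 0.07, edgeR adjusted p = 6.18e-15). H2-Eb1, a class II beta chain gene, reached 91.5, 142 and 124 CPM against 33.6, 32.7 and 41.2 CPM (1.68 ± 0.10), and the dendritic cell genes Itgax and Cd209a were higher by 3.02 ± 0.49 and 4.48 ± 0.66. Kupffer cells, the resident macrophages of the sinusoid, gave 4 of 11 genes lower, none higher and a median of -0.35. Clec4f, their lectin, reached 86.9, 94.9 and 86.7 CPM against 119, 126 and 130.5 CPM (-0.54 ± 0.07), while the complement gene C1qb did not pass the test at 91.5, 132 and 146 CPM against 112, 117 and 130.3 CPM.

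Markers of other cell types that could enter a portal spot were scarce, apart from those of red cells. The red cell sum was 208, 1006 and 308 CPM in bile duct spots. None of 4 tested genes of B and plasma cells, 7 of T and NK cells, 3 of neutrophils and 5 of red cells passed the test in either direction. The T and NK sum reached 9.85, 15.9 and 24.8 CPM against 10.1, 10.7 and 13.1 CPM, overlapping in section 2. Of the mesothelial genes, which matter because mesothelium expresses Krt7 and Krt19, only Gpm6a passed the filter and it was higher, at 3.48, 3.41 and 3.64 CPM against 0.446, 0.314 and 0.462 CPM (3.04 ± 0.49), while the defining gene Msln was at 0 in the bile duct spots of every section. Of nerve and lymphatic genes, Mbp, a myelin gene, was higher at 1.16, 3.98 and 0.729 CPM against 0.178, 0.371 and 0.385 CPM (2.65 ± 0.64).

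Bile duct spots had a periportal hepatocyte profile. Of 27 periportal genes, 22 were higher, none lower and the median log2 fold change was 0.36, whereas 32 of 34 pericentral genes were lower, none higher and the median was -1.25. Aldh1b1, a mitochondrial aldehyde dehydrogenase also known from duct cells, reached 226, 212 and 208 CPM against 52.0, 41.2 and 43.6 CPM (2.18 ± 0.07, edgeR adjusted p = 2.58e-21). Sds, serine dehydratase of gluconeogenesis, reached 441, 423 and 451 CPM against 195, 213 and 208 CPM (1.03 ± 0.05), and Cps1, the entry enzyme of the urea cycle, did not pass the test. Cyp2e1, which activates acetaminophen, reached 958, 881 and 643 CPM against 2408, 2267 and 1787 CPM (-1.45 ± 0.05). Glul, glutamine synthetase of the last cell layer around the central vein, reached 96.2, 111 and 76.5 CPM against 228, 225 and 204 CPM (-1.26 ± 0.07). Of 12 genes that hepatocytes of all zones express, 2 were higher and 4 lower, with a median of -0.07. Marker-free spots covered the whole lobule, with a summed level of 5 periportal genes of 17.3, 17.7 and 19.0 UMIs per 10000 against 33.5, 31.5 and 33.8 in bile duct spots, so zone and tract cannot be told apart in this comparison.

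By the rule for naming genes, which took those at 10 CPM or more with the same direction in all 3 sections, the 15 with the largest log2 fold change were led by Scara3 and Kcne3. Scara3, a scavenger receptor that clears oxidants (chromosome 14, 65919394 to 65953935), reached 22, 30.7 and 20.4 CPM against 0.446, 0.914 and 0.462 CPM, a log2 fold change of 5.25 ± 0.26 (edgeR adjusted p = 3e-16). Kcne3, a potassium channel subunit of secretory epithelia (chromosome 7, 100176502 to 100184869), reached 14.5, 16.5 and 21.1 CPM against 0.208, 0.743 and 0.462 CPM (5.11 ± 0.32). Bcam, a laminin receptor of basal epithelial surfaces, reached 22.6, 22.2 and 26.2 CPM against 2.83, 2.34 and 2.58 CPM (3.12 ± 0.21). Gpx3, a secreted glutathione peroxidase, S100a6, a calcium-binding protein, and Fmo2, a flavin monooxygenase, were higher by 3.18 ± 0.20, 2.95 ± 0.20 and 3.24 ± 0.27. Gm2564, an uncharacterised gene, was higher by 3.34 ± 0.24.

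The 10 genes with the most negative log2 fold change included the pericentral cytochromes. Rgn, a calcium-regulated lactonase, reached 309, 299 and 260.2 CPM in bile duct spots against 890.5, 896 and 848 CPM in marker-free spots (-1.66 ± 0.05, edgeR adjusted p = 3.76e-21). The vasopressin receptor gene Avpr1a and the glutamate carrier gene Slc1a2 were lower by -1.97 ± 0.18 and -1.66 ± 0.15. The cytochrome genes Cyp2c37, Cyp2c40, Cyp2c69 and Cyp2a5 were lower by -1.69 ± 0.09, -1.73 ± 0.12, -1.79 ± 0.21 and -1.60 ± 0.10, and their close sequence similarity could let reads be shared between copies. The remaining genes were Lhpp, a phosphatase gene (-1.95 ± 0.19), the thyroxine carrier gene Serpina7 (-1.92 ± 0.16) and the uncharacterised Gm32468 (-1.98 ± 0.21). In the plot of these genes by class, bile duct spots overlapped the portal reference spots for 8 of the 10, the exceptions being Avpr1a and Rgn.

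**Figure D3:**
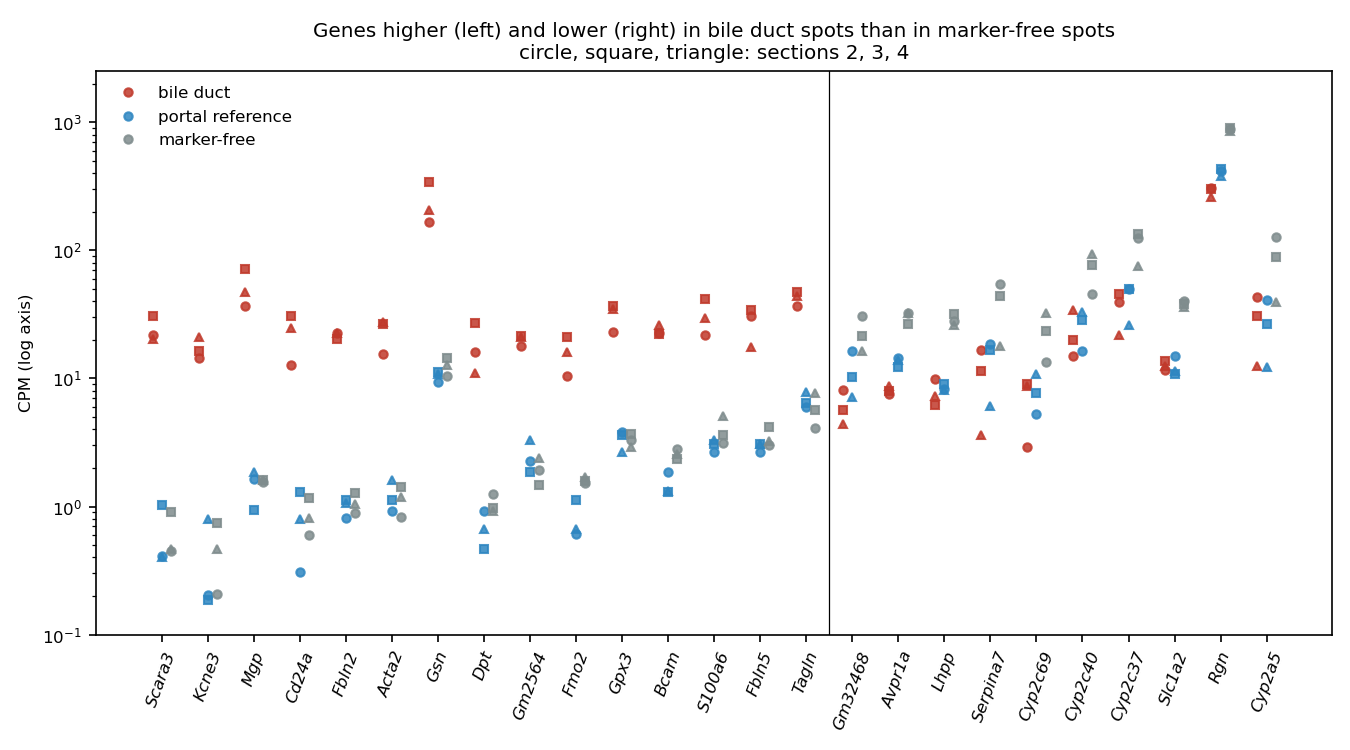
Levels in CPM (log axis) of the 15 genes with the largest higher and the 10 with the largest lower log2 fold change in bile duct against marker-free spots, with red bile duct, blue portal reference and grey marker-free spots, and a symbol per section. For all 15 genes on the left every red symbol lies above every blue and grey one, while Lhpp, at 9.85, 6.25 and 7.29 CPM in red and 8.30, 8.97 and 8.13 CPM in blue, is an example of the overlap on the right. The genes were picked from these same values for their large differences, so the separation is a description only. The share of all tested genes with such a separation was not counted.

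To compare the tract with hepatocytes of its own zone, bile duct spots were set against a portal reference, the 25% of marker-free spots richest in the periportal genes Cyp2f2, Hal, Sds, Gls2 and Hsd17b13 (301, 380 and 363 spots). Here 761 of 10382 genes (7.33%) were higher and 457 (4.4%) lower in edgeR. The periportal sum of the 5 genes was then close, at 31.2, 32.6 and 33.0 UMIs per 10000 in the reference. The reference spots were deeper, with medians of 33378, 29926 and 22161 UMIs. With every spot thinned to 8000 UMIs and the spots chosen anew, 238 genes were higher and 122 lower, though thinning also discards most UMIs. The mitochondrial share of the reference was 4.63%, 4.33% and 2.71%, below that of the bile duct spots in each section, and its part was not tested. Duct epithelium had 21 of 22 tested genes higher with a median log2 fold change of 1.26, portal fibroblasts and matrix 24 of 25 with 2.13, smooth muscle 8 of 9 with 1.89, portal vessels 11 of 16 with 1.07, antigen presentation 10 of 10 with 1.31 and Notch and YAP genes 10 of 15 with 1.06, while none of these lists had a lower gene. Of periportal genes 5 of 22 were higher and 3 lower with a median of 0.01, and of pericentral genes 22 of 31 were lower with a median of -0.30. The pericentral direction was not kept with Spp1 left out of the score, where 10 of 32 were higher and 4 lower with a median of 0.06. The same number of bile duct spots then held fewer UMIs, 1279160, 1227921 and 1040975 against 1725865, 1759873 and 1371773. The part of this depth was not tested. Without the section as block the counts were 441 and 28, without section 3 they were 451 and 200, and without section 4 the lower count was 209. Total-count scaling gave 839 higher and 190 lower.

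Against the reference, Mgp was higher by 5.10 ± 0.20, with reference levels of 1.64, 0.934 and 1.87 CPM (edgeR adjusted p = 2.16e-131), and Scara3 by 5.17 ± 0.30. A p this small rests on the spread that edgeR pools over genes and is no measure of the spread between 3 sections. Gsn, at 9.43, 11.3 and 10.8 CPM in the reference, was higher by 4.44 ± 0.09. Vwf, at 1.33, 2.80 and 2.13 CPM there, was higher by 3.28 ± 0.26, and Adamtsl2, a matrix microfibril gene, reached 15.1, 30.1 and 24.1 CPM against 1.23, 3.55 and 3.20 CPM (3.06 ± 0.25). Aldh1b1 was higher by 1.20 ± 0.07, at 103, 80.9 and 84.6 CPM in the reference. On the lower side, the gene at 10 CPM or more in the reference with the most negative log2 fold change was Marco, a macrophage scavenger receptor, at 10.4, 9.66 and 10.9 CPM against 18.9, 16.2 and 20.8 CPM (-0.91 ± 0.20). Marco lost its call with DESeq2, with the top 1% of spots and after thinning, at adjusted p = 0.0854, 0.0921 and 0.735. Clec4f was lower by -0.67 ± 0.08. Of 11 Kupffer genes 5 were lower and none higher with a median of -0.39, and the lower count was 1 after thinning to 8000 UMIs and 2 with DESeq2. Cd163, a haemoglobin scavenger receptor gene, was called at -0.67 ± 0.24 (edgeR adjusted p = 0.0426), but lost the call in 14 of 16 alternatives, with adjusted p from 0.0882 to 0.583, among them the omission of any section. The 10 genes named on the lower side also held Enho, Avpr1a, Rmdn2, E2f4, Kbtbd2 and Fam35a. Each of these lost its call with Spp1 left out of the score. In all, 11 genes were lower by 2-fold or more and 465 were higher by that much. Among pericentral genes, Slco1b2, an organic anion carrier, was lower by less, at 251, 206 and 189.5 CPM against 353, 343 and 278 CPM (-0.66 ± 0.06). With Spp1 left out of the score, Slco1b2 was at -0.197 and lost its call (edgeR adjusted p = 0.0606). Cyp2e1, Glul and Lhpp did not pass the test here.

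Spots that touched a bile duct spot without being one, 248, 331 and 295 in number, were compared with spots at least 3 steps from any, 1253, 1757 and 1503. Of 12100 genes, 415 (3.43%) were higher and 379 (3.13%) lower next to bile duct spots in edgeR, and 38 and 48 of them by 2-fold or more. Of periportal genes 26 of 27 were higher and none lower with a median log2 fold change of 0.38, and 31 of 34 pericentral genes were lower with a median of -0.71. Duct epithelium had 10 of 19 genes higher and none lower with a median of 0.24, portal fibroblasts and matrix 7 of 25 with 0.19, and Notch and YAP genes 2 of 16. Scara3 reached 2.99, 3.59 and 2.79 CPM in the neighbouring spots (2.36 ± 0.27, edgeR adjusted p = 6.61e-09) and Mgp 4.22, 6.78 and 3.56 CPM (1.93 ± 0.21), both far below the bile duct spots. Bcam, Fmo2 and Vwf did not pass the test in the neighbouring spots. The counts were 21 and 36 without the section as block and 176 and 185 without section 2, and total-count scaling gave 292 higher and 614 lower.

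Over distance, the tract genes shown fell mostly within a step and the hepatocyte genes shown changed more gradually. The first step leaves the chosen spots by definition. A fall there in genes that occur with the 5 genes therefore follows in part from the choice. Cldn7 was at 0.680, 1.73 and 1.86 CPM a step away, after 5.21, 16.5 and 21.1 CPM in the bile duct spots, and Acta2 at 2.86, 3.19 and 2.94 CPM after 15.6, 26.7 and 27.7 CPM. Aldh1b1 went from 226, 212 and 208 CPM to 127, 90.7 and 109 CPM a step away and reached 43.8, 45.5 and 35.5 CPM at 3 steps. Glul had its highest level at 3 steps, at 292, 256 and 272 CPM, with 96.2, 111 and 76.5 CPM in the bile duct spots and 163, 189 and 153 CPM from 6 steps on. These are levels by distance, with no test. Spp1, which chose the spots, was itself at 53.2, 74.8 and 63.6 CPM a step away, and its part in these levels was not tested.

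**Figure D4:**
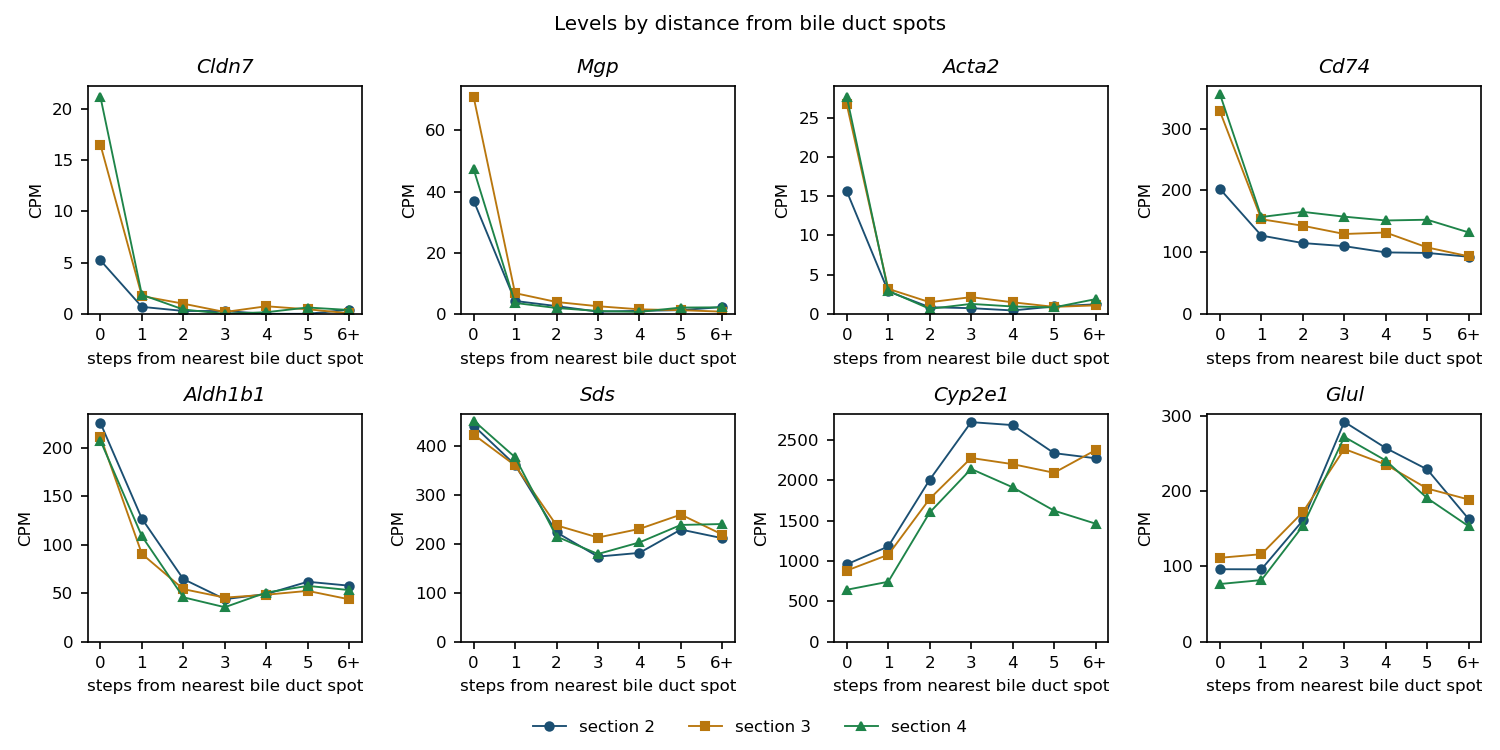
Levels in CPM (linear axis from 0) of 8 genes by distance from the nearest bile duct spot in steps of the spot grid, with 6+ for all spots at 6 steps or more and a line per uninjured section. Cldn7, Mgp and Acta2 drop within a step, which follows in part from the choice of the spots at 0. Cyp2e1 and Glul peak at 3 steps in each section, except that Cyp2e1 in section 3 is highest at 6+.

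The bile duct spots varied among themselves. Summed duct epithelium genes per spot ranged from 9.79 to 52.2 UMIs per 10000 in section 2, from 7.84 to 64.3 in section 3 and from 4.05 to 104 in section 4, with medians of 27.7, 31.1 and 33.6, so that the lowest members lay below the marker-free medians of 16.7, 17.7 and 18.7. Connective tissue genes varied most in section 3, from 1.03 to 91.0 UMIs per 10000 with a median of 11.9. Spots that held a UMI of Krt7, Krt19 or Epcam, 30 of 58, 47 of 81 and 40 of 70, had portal fibroblast and matrix sums of 1065, 1755 and 1162 CPM, against 781, 989 and 980.0 CPM in the spots without. Smooth muscle sums were 181, 258 and 223 CPM against 142, 143 and 152 CPM, and antigen presentation sums were 1085, 1569.7 and 1360.1 CPM against 795, 928 and 984 CPM. Each of these sums was higher with the UMI in all 3 sections, in a split that uses genes of the choosing rule and is given with no test. Some other lists differed in direction between sections: portal vessel sums were 387, 522 and 461 CPM against 348, 403 and 484 CPM, duct transport sums were 1169, 1231 and 1237 CPM against 1142, 1123 and 1261 CPM, and Kupffer sums were 501, 727 and 735 CPM against 591, 676 and 589.5 CPM. Periportal hepatocyte sums were 38318, 38816 and 45697 CPM against 39062, 40233 and 46564 CPM. The spots with such a UMI were also deeper, at medians of 30820.0, 21538 and 20813.5 UMIs against 22944.5, 17850.5 and 18868.5, and the part of depth was not tested.

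The same rule was applied to the 8 injured sections, where it chose 546 spots. Spp1 was high there far from the chosen spots too, at 55.3 to 437 CPM, and spots without any UMI of the 5 genes were only 1.60% to 42.3% of a section, so the classes there need not separate ducts. The summed periportal genes were lower in the chosen than in the marker-free spots of all 4 sections at 48 h, at medians of 7.57 to 10.5 against 13.1 to 27.4 UMIs per 10000, and higher in the 4 sections at 24 and 36 h, at 18.6 to 33.0 against 7.68 to 28.4. Thus at 48 h the rule chose spots with less periportal RNA, the reverse of uninjured liver. Of 10746 genes tested across all 11 sections, 1557 (14.5%) were higher and 1559 (14.5%) lower in edgeR in the spots chosen in injured sections than in marker-free spots. Duct epithelium had 16 of 21 genes higher and 1 lower, the junction gene Dsg2, with a median log2 fold change of 0.71. Portal fibroblasts and matrix had 23 of 26 higher with a median of 1.65, antigen presentation 9 of 9 with 1.41 and smooth muscle 7 of 8 with 1.06. Other cell types were on the higher side as well, with 7 of 11 Kupffer genes higher (median 0.52), 4 of 4 neutrophil genes (1.17) and 2 of 2 genes of T and NK cells (1.65), and their part in the other changes was not tested. Of periportal genes 1 of 27 was higher and 8 were lower, and of pericentral genes 26 of 32 were lower and none higher. Total-count scaling gave 2527 higher and 699 lower, and without section A of 48 h the counts were 954 and 866.

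The difference between the spots chosen by the rule and marker-free spots itself differed between injured and uninjured sections for 29 genes, 8 (0.0744%) with a higher and 21 (0.195%) with a lower value after injury. Among the latter were the named genes Kcne3, with log2 fold changes of 5.11 in uninjured and 2.08 in injured sections, Mgp with 4.95 and 2.78, Cd24a with 4.63 and 2.60 and Gsn with 4.17 and 2.51. The largest difference among genes with a unique symbol was that of Cyp1a1, an inducible cytochrome, at 4.32 and 0.64 (difference -3.61 ± 0.47, edgeR adjusted p = 0.00224), followed by Ace, the angiotensin-converting enzyme of arterial endothelium, at 4.64 and 1.25. Mfge8, a bridging protein for cell debris, went from 2.51 to 0.81. The genes with a higher value included the pericentral genes Oat, ornithine aminotransferase, at -1.48 and 0.20, and Glul at -1.26 and 0.27. The counts hold for 11 sections of which 3 are uninjured, and they were 3 and 10 under total-count scaling and 38 and 51 without section A of 24 h. Mouse, time and injury cannot be told apart in this comparison.

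**Figure D5:**
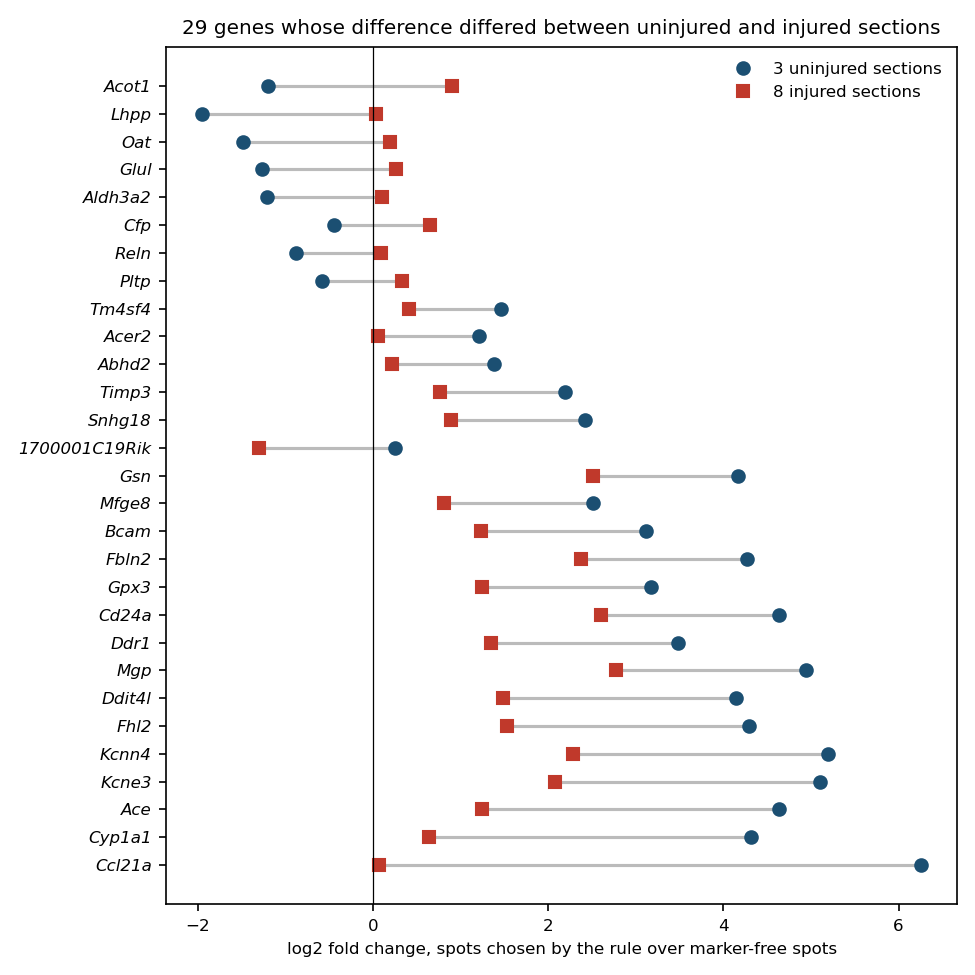
Log2 fold change of the spots chosen by the rule over marker-free spots in the 3 uninjured sections (circles) and the 8 injured sections (squares) for the 29 genes whose difference differed between them in edgeR. Of the 21 genes with a lower value after injury, 1700001C19Rik, at -1.30, lay below 0 in the injured sections and the others above it, such as Gsn at 2.51.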

How the data were processed

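Visium 3′ libraries of 11 liver sections were processed by the authors with Space Ranger 1.0.0 and Seurat 4.1.1 on mm10, per the submitters' processing notes. The deposited matrices hold raw UMI counts per gene and spot, with no normalization by the authors. Spots off the tissue, under 800 detected genes or above 20% mitochondrial RNA were dropped. The 2 quality limits removed 14, 40 and 103 spots of the uninjured sections. The total UMI count per section and class is the depth behind each value.

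Counts were summed per section and spot class, and tested with edgeR 4.0.16 in R 4.3.3 (filterByExpr, TMM, robust quasi-likelihood, Benjamini-Hochberg over all genes tested, two-sided). Both classes came from the same section, so the section was the block. This pairing comes from the design. An exact test on 3 paired sections cannot give a two-sided p below 0.25. The whole sections differed beyond sampling noise, with chi-square values per gene of 42.1 between sections 2 and 3, 75.3 between 2 and 4 and 92.3 between 3 and 4. For the bile duct spots alone the values were 3.27, 5.65 and 6.23 for the same pairs. DESeq2 1.42.0, other scalings, filters, scores and thresholds, thinning to 8000 UMIs and leaving out each section were the alternatives. Standard errors and p-values are those of the edgeR fit across sections. This fit pools the spread over genes, so very small p-values rest largely on that pooling.

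Genes were named by rule: at least 10 CPM in every section of the higher class and the same direction in the 3 sections, the 15 with the largest higher and the 10 with the largest lower log2 fold change. From each list the members with the highest mean CPM were named. Other list members were named after their values were seen. The 20 lists hold textbook markers, and the periportal and pericentral lists also hold zonation genes of the study, so their direction is no independent evidence. Members and lists were chosen with earlier results of these data known. The scripts were tested on simulated data.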

Additional observations from a re-analysis of the deposited data

Results flagged for a closer look

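The difference between the spots chosen by the rule and marker-free spots itself differed between injured and uninjured sections for 8 genes with a higher and 21 with a lower value after injury, by edgeR's interaction test. Among genes named in the report, the injured minus uninjured log2 difference was 2.01 for Lhpp, 1.71 for Oat, 1.58 for Glul and 1.01 for Reln, and it was -1.01 for Tm4sf4, -1.58 for Gsn, -1.85 for Bcam, -1.86 for Fbln2, -1.89 for Gpx3, -1.98 for Cd24a, -2.11 for Mgp, -3.01 for Kcne3, -1.64 for Mfge8, -3.33 for Ace and -3.61 for Cyp1a1. The value for Ccl21a, a chemokine gene of lymphatic vessels, was -6.10, but 2 gene identifiers carry this symbol and near-identical copies could share its reads, so it is uncertain. In the injured sections the chosen spots differed in periportal content as given in the report, and the part of this in the values was not tested.

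Array spots off the tissue, which no comparison used, held 15.4%, 19.1% and 19.97% of all UMIs in uninjured sections 2, 3 and 4. Among the 4 sections at 48 h, Spp1 supplied 95.5% of the UMIs of the 5 genes in the chosen spots of section A, which stood apart from 98.5% to 99.0% in the others. Chance flags about 1 in 20 groups in this way for each measure. The lowest score, the share of marker-free spots and the share with a bile duct neighbour were also checked and not flagged. A flag by chance among these measures is therefore more frequent than that.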

How the results depend on the processing

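Without the section as replicate block, that is, without the pairing of classes within a section, the counts in edgeR changed as follows: bile duct against marker-free spots 625 higher and 178 lower (with it 954 and 668), against the portal reference 441 and 28 (761 and 457), neighbouring against far spots 21 and 36 (415 and 379), and injured sections 830 lower (1559). DESeq2 gave 606 and 331, 340 and 128, and 158 and 160 for the first 3 comparisons. Thinning to 8000 UMIs gave 378 and 311, 238 and 122, and 196 and 178. Choosing spots on a random part of the UMIs and testing on the rest gave 518 and 396, and 390 and 257. Total-count scaling gave 431 lower, 190 lower and 614 lower for these comparisons, 2527 higher and 699 lower in injured sections, and 3 and 10 for the difference between injured and uninjured sections. Without the low-count filter 1020 genes were lower than in marker-free spots. Requiring 2 UMIs of Krt7, Krt19, Epcam or Sox9, chosen after seeing the data, gave 417 and 198 against the reference.

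Leaving out a section gave 676 to 890 higher and 423 to 626 lower (423 without section 3) against marker-free spots, 451 to 737 and 200 to 390 against the reference (451 and 200 without section 3, 209 without section 4), and 176 to 539 and 185 to 427 for neighbouring spots (176 and 185 without section 2). In injured sections it gave 954 to 1909 and 866 to 1912 (954 and 866 without 48 h A, 976 lower without 48 h D). The difference between injured and uninjured sections ranged from 2 to 38 and from 12 to 51 (38 and 51 without 24 h A, 4 and 13 without 36 h B or 48 h A, 5 and 12 without 48 h B, 2 and 12 without 48 h C, and 2 higher without 48 h D). The 15 named higher genes kept their call in 225 of 225 alternatives and those against the reference in 240 of 240, whereas the lower ones did in 146 of 150 and 86 of 160. The named genes were picked for the largest differences in the main fit, and the alternatives reuse the same sections, so these counts are no independent support. Over all genes, 631 calls against marker-free spots and 335 against the reference were shared with the main fit after thinning. The sign changed for E2f4, at 0.00156 with Spp1 left out of the score, and Kbtbd2, at 0.0131 after thinning. The cause was not tested. With 3 sections of 1 liver, spread between mice could not be measured.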
